A study of Oryctolagus cuniculus with 4 samples.

Results

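The comparison described here set a rabbit supraspinatus muscle section taken 16 weeks after tenotomy against a section taken 2 weeks after tenotomy. Every spot of both sections entered it, 1726 spots at 16 weeks and 854 spots at 2 weeks, which made 2580 of the 6970 spots of the series. The sections came from skeletally mature female New Zealand White rabbits in which the supraspinatus tendon had been detached as a model of a torn rotator cuff. Both samples were snap-frozen and had been stored for 6 years before they were sectioned for Visium, a spatial assay in which messenger RNA is captured on an array of barcoded spots and counted by unique molecular identifiers (UMIs). The remaining sections were healthy supraspinatus muscle without tenotomy, 1 stored for 6 years, which by its label is the opposite side of the 16-week animal, and 1 labelled fresh from another animal.

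There was 1 section per group and the 2-week and 16-week sections came from different animals, so time after tenotomy, animal and the place where the muscle was cut cannot be told apart. No test between the groups is possible, and each value below carries at most an interval for counting error, which says nothing of the spread between animals. A spot is a small region that can hold parts of several fibers and other cells, and a lower share of a gene can come from fewer cells of a type or from less RNA per cell, which cannot be told apart. Barcodes mark positions on the array and are used again on every array, and 602 of them occurred in both sections without marking the same tissue.

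Skeletal muscle fibers are classed by the myosin heavy chain they build. Slow oxidative fibers use MYH7, while the faster fibers use MYH2, MYH1 or MYH4 and rely more on glycolysis. A muscle that has lost its tendon shortens and is unloaded, and in the chronic stage the fibers become smaller while fat and connective tissue take up more of the muscle belly. Genes that are normally used by developing muscle return when fibers regenerate.

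The 2-week section held 4079313 UMIs, with a median of 4588 per spot, and the 16-week section held 4743522 UMIs, with a median of 2090 per spot. Mitochondrially encoded genes took 33.8% of UMIs at 2 weeks and 34.6% at 16 weeks, against 49.2% in stored healthy and 49.3% in fresh healthy muscle. Because of that gap to the healthy sections, a level is given below as UMIs of a gene per 10000 non-mitochondrial UMIs of the section. The ratio of 16 to 2 weeks was taken relative to all UMIs, and leaving the mitochondrial genes out raises every log2 ratio over all spots by 0.02. Levels are compared within a gene and not between genes, as they are not per length.

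Contractile genes took a lower share of the UMIs in most spots of the 16-week section. The median spot had 23.6% of its non-mitochondrial UMIs in 19 contractile genes at 2 weeks (quartiles 21.1 and 25.4%) and 12.4% at 16 weeks (quartiles 7.11 and 17.5%). The same median was 19.8% in stored healthy and 19.3% in fresh healthy muscle, so the 2-week section lay above and the 16-week section below both healthy sections. Spots with at least 500 UMIs and a contractile share of at least 15.7%, the 10th percentile of the stored healthy spots, are called muscle-rich here. They made up 88.8% of the 2-week spots (758 spots, exact 95% interval 86.4 to 90.8%) and 32.3% of the 16-week spots (557 spots, 30.1 to 34.5%). A score from 9 contractile genes shared by fast and slow fibers, chosen after seeing the data, instead gave 773 spots at 2 weeks and 674 at 16 weeks. The limit of 15.7% divides a range rather than tissue types, and 747 of the 16-week spots and 154 of the 2-week spots lay within 5 percentage points of it. The muscle-rich spots held 93.7% of all UMIs of the 2-week section and 51.4% of those of the 16-week section. Outside the muscle-rich spots the median depth was 1568 UMIs at 16 weeks and 2110.5 at 2 weeks.

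**Figure D1:**
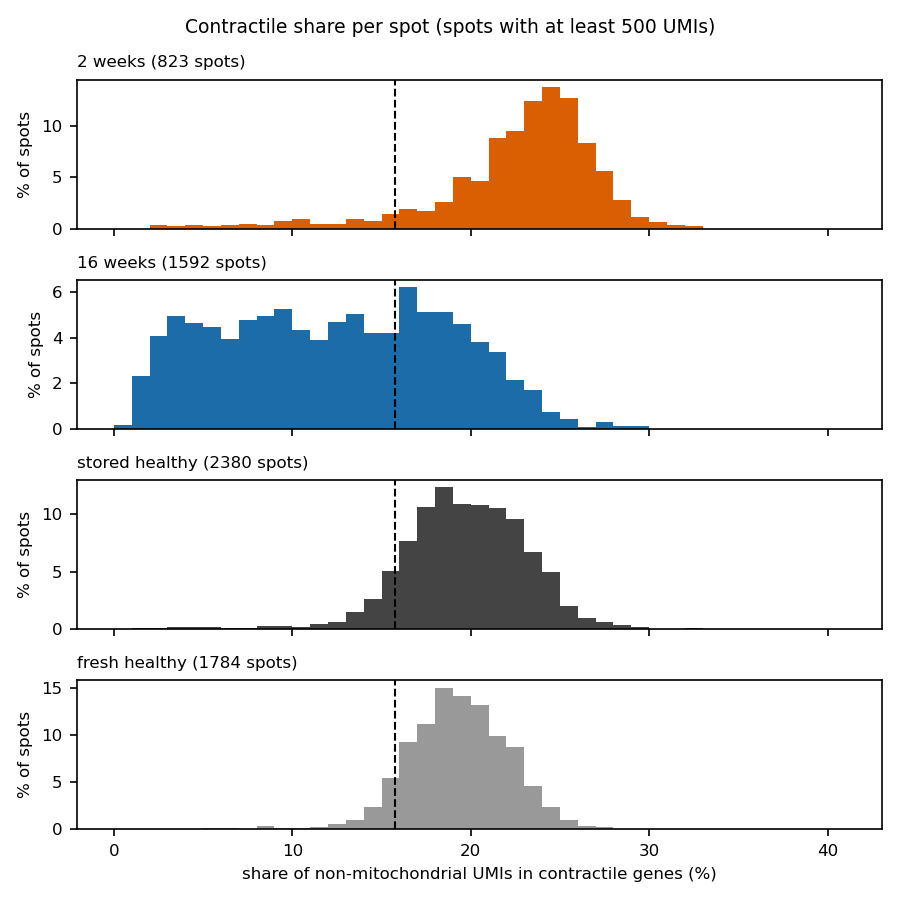
Share of each spot's non-mitochondrial UMIs in contractile genes (horizontal, percent) against the percent of spots (vertical), for spots with at least 500 UMIs of each section, with the limit of 15.7% as a dashed line. The 2-week spots gather around the median of 23.6%, to the right of both healthy sections, and the 16-week spots spread almost evenly from near 0 to beyond 20%.

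Among 4125 nuclear and mitochondrial genes with at least 50 UMIs in both sections together, 655 were at least 2-fold higher at 16 weeks (15.9%) and 194 were at least 2-fold lower (4.7%). For all 849 the exact 95% interval of the ratio excluded 1. The minimum of 50 UMIs and the 2-fold limit together ensure this, so it adds no support to the calls. Counts within gene lists below, for all spots, stand beside these shares. The ratio of the middle gene was itself above 1, with a median log2 ratio of 0.31. After centring on that median, 340 genes were at least 2-fold higher (8.24%) and 380 lower (9.21%), and all 194 lower genes stayed in the lower class. Of the 91 genes chosen for naming that reached 2-fold, 71 did so after centring as well, and the others were FHL1, LPL, STAB1, MYH7, HK2, PRKAR1A, MYL3, HSPB1, MCM3, ANKRD2, CCN1, FBN1, CTSB, MYOZ2, CCL21, BMP4, TNNC1, CSF1R, CASQ2 and CD36. A gene near the minimum of 50 UMIs can pass it only through the section in which it is high, and a gene that did so had to differ. Others near it, such as S100A9 with 31 UMIs in each section, did not. As a scale for these counts, the stored and fresh healthy sections, also 1 animal each, were compared in the same way over 4370 genes. There 7.94% were at least 2-fold higher in the stored section and 8.81% lower, 16.8% in all, against 20.6% here and 17.5% here after centring. The healthy pair also differs in storage, which the 2-week and 16-week sections share, and was deeper, with 12536450 and 7017798 UMIs. Its stored section is by label from the 16-week animal. Animal and storage cannot be told apart in that pair, here or where it is used below.

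In the muscle-rich spots alone which direction held more genes depended on the total. There 156 of 3302 genes were at least 2-fold higher at 16 weeks (4.72%), 230 were lower (6.97%), which is 11.7% in all, and the median log2 ratio was -0.05. Mitochondrial genes took 34.3% of the UMIs of these spots at 2 weeks and 40.9% at 16 weeks, so leaving them out of the total, a choice made after seeing the data, raises every log2 ratio there by 0.15. With that total 223 genes were higher (6.75%) and 180 lower (5.45%), which is 12.2% in all, and the median was 0.10. The ratios in muscle-rich spots given below are relative to all UMIs. List counts in these spots stand beside 4.72% higher and 6.97% lower over all genes there. Of the 655 higher genes 411 could be compared in muscle-rich spots, where 141 were again at least 2-fold higher and 14 had the opposite sign. Of the 194 lower genes 179 could be compared, 150 were again at least 2-fold lower and none had the opposite sign. The share of muscle-rich spots differed between the sections along with these counts, and its part in single differences was not tested.

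**Figure D2:**
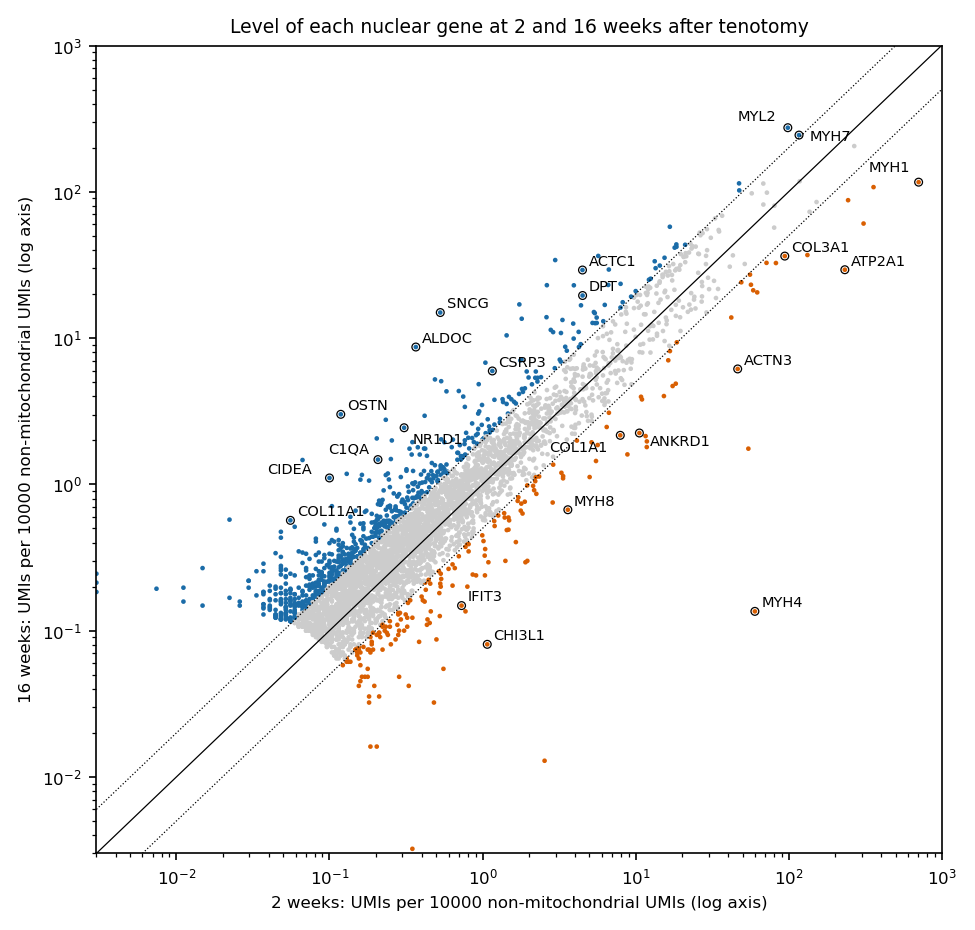
Level of each nuclear gene at 2 weeks (horizontal) and 16 weeks (vertical) in UMIs per 10000 non-mitochondrial UMIs, on log axes that cut genes at or near 0 to the edge, with equality as a solid line and 2-fold as dotted lines. Genes at least 2-fold higher at 16 weeks are blue and those lower are orange, and the farthest labelled points are SNCG at 0.530 and 14.9 on one side and MYH4 at 60.2 and 0.135 on the other.

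Most fast fiber genes were lower in the 16-week section than in the 2-week section, and several slow fiber genes were higher. MYH4, the myosin of the fastest fibers, had 16259 UMIs at 2 weeks and 42 at 16 weeks. Its level was 60.2 at 2 weeks and 0.135 at 16 weeks, beside 0.459 in stored healthy and 0.523 in fresh healthy muscle. The 2-week section was therefore the one that stood apart, and MYH4 was 450-fold lower at 16 weeks (95% interval 333 to 625). When every spot was thinned to 1000 UMIs, which left out 53 spots at 2 weeks and 352 at 16 weeks, 78.7% of the 2-week spots and 0.801% of the 16-week spots held a MYH4 UMI.

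MYH1, the myosin of fast IIx fibers, had a level of 707 at 2 weeks, 116 at 16 weeks, 162 in stored healthy and 395 in fresh healthy muscle. It was 6.15-fold lower at 16 weeks (6.08 to 6.22), and the 2-week level lay above and the 16-week level below both healthy sections. MYH7, the slow and cardiac beta myosin, had levels of 117 at 2 weeks, 244 at 16 weeks, 202 in stored healthy and 66.5 in fresh healthy muscle. That is 2.06-fold higher at 16 weeks (2.03 to 2.09), a log2 ratio of 1.04. MYH7B, a slow myosin relative, was 4.59-fold higher (3.67 to 5.79). MYH13, the myosin of extraocular muscle, had 63 and 208 UMIs, and 78.4% of the latter lay in 1% of the spots. Its log2 ratio was 1.50 in all spots, -0.37 without the 1% of spots with most of its UMIs and -0.0032 in muscle-rich spots. Of the 6 myosin heavy chain genes 3, MYH13 among them, were higher and 3, with MYH8, lower, and the median log2 ratio was -0.70. MYH2 and MYH3 were not analysed here, and reads of near-identical myosin genes may be split between them, so single myosin values are uncertain.

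Of all UMIs in the 6 myosin heavy chain genes, MYH1 took 79.6% at 2 weeks and 32.0% at 16 weeks. The share of MYH7 was 13.2% at 2 weeks and 67.1% at 16 weeks. In the stored healthy section these shares were 44.1% and 55.0%, and in the fresh healthy section 85.4% and 14.4%. The MYH1 and MYH7 shares of the 2-week section were thus near those of the fresh muscle, and the healthy sections differed widely from each other. Those of the 16-week section were nearer to the stored healthy section, by its label the opposite side of the same animal. MYH4 made up 6.78% at 2 weeks and 0.0372% at 16 weeks.

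The shift was spread over the section. Per spot, the share of MYH7 was taken of the UMIs of MYH1, MYH4 and MYH7 only, in spots with at least 10 of these UMIs. Its median was 8.89% at 2 weeks and 70.7% at 16 weeks, beside 48.5% and 9.16% in stored and fresh healthy muscle. MYH7 was the larger part of these UMIs in 45 of 842 such spots at 2 weeks (5.34%, exact interval 3.92 to 7.09%) and in 1101 of 1426 at 16 weeks (77.2%, 74.9 to 79.4%). Few spots held UMIs of a single fiber type, as 98.7% of the 2-week and 96.2% of the 16-week spots held UMIs of both MYH1 and MYH7. Within muscle-rich spots, which were chosen with these myosins among the scored genes, MYH7 took 13.0% at 2 weeks and 67.7% at 16 weeks.

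Other fast fiber genes went with the fast myosins. In the list of fast sarcomere and metabolism genes 6 members passed the minimum. At 16 weeks 5 of 6 were at least 2-fold lower, beside 4.7% of all genes, and none higher. The median log2 ratio of the list was -2.11 against 0.31 over all genes. ATP2A1, the calcium pump of the fast sarcoplasmic reticulum, had levels of 233 at 2 weeks, 29.3 at 16 weeks, 74.9 in stored healthy and 123 in fresh healthy muscle, and was 8.05-fold lower (7.87 to 8.22). ACTN3, the Z-disc actinin of fast fibers, had levels of 46.5, 6.15, 11.9 and 33.3 in the same order and was 7.65-fold lower (7.29 to 8.03). MYL1, a fast light chain, was 5.15-fold lower (5.07 to 5.24), and CASQ1, the calcium buffer of fast fibers, was 3.09-fold lower (2.98 to 3.20). For each of these 4 genes the 16-week level was below both healthy sections.

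In the list of slow genes 6 of 10 members were at least 2-fold higher, beside 15.9% of all genes, and none lower, with a median log2 ratio of 1.15. After centring on the median gene 2 of 10 were higher, MYL2 and CSRP3, and 1, TNNI1, was lower. Summed over the list, levels were 376 at 2 weeks, 614 at 16 weeks, 839 in stored healthy and 367 in fresh healthy muscle. The 16-week sum was thus below that of the stored healthy section, the opposite side of the same animal. MYL2, the slow regulatory light chain, had levels of 98.8 at 2 weeks, 274 at 16 weeks, 495 in stored healthy and 114 in fresh healthy muscle, and was 2.74-fold higher (2.70 to 2.78). TNNC1, the slow troponin C, was 2.38-fold higher (2.33 to 2.43), and MYL3, a slow essential light chain, was 2.12-fold higher (2.08 to 2.17). MYOZ2 and CASQ2, a Z-disc protein and the calcium buffer of slow and cardiac muscle, were 2.31-fold (2.10 to 2.53) and 2.44-fold higher (2.17 to 2.74).

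Not all slow genes were higher. TNNI1, the slow troponin I, had a level of 137 at 2 weeks and 73.0 at 16 weeks, a log2 ratio of -0.93, and FABP3, the fatty acid carrier of oxidative muscle, had levels of 10.6 and 8.01. The stored and fresh healthy sections differed along the same axis, with a median stored over fresh log2 ratio of 1.24 for the slow list and -0.39 for the fast list, so differences in these genes of the size of the slow list's occurred without tenotomy. In muscle-rich spots 6 of 10 slow genes were higher with a median of 1.30, and 5 of 6 fast genes were lower with a median of -1.94.

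Sarcomere genes that fast and slow fibers share differed less than the fast genes, but lay toward the lower side. The median log2 ratio of the 12 was -0.41, and none lay above the median of 0.31 over all genes. After centring 3 of 12 were lower. Before centring none was at least 2-fold higher and 2 were lower, beside 15.9% and 4.7% of all genes. These were TPM1, a tropomyosin, at 2.83-fold lower (2.79 to 2.87), and MYOZ1, a Z-disc protein more abundant in fast fibers, at 2.48-fold lower (2.41 to 2.55). Their median was -0.15 in muscle-rich spots, where Tpm2 had a level of 279 at 2 weeks and 277 at 16 weeks. Those spots were chosen in both sections by the same minimum contractile share, so sarcomere levels there are not independent of the choice.

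**Figure D3:**
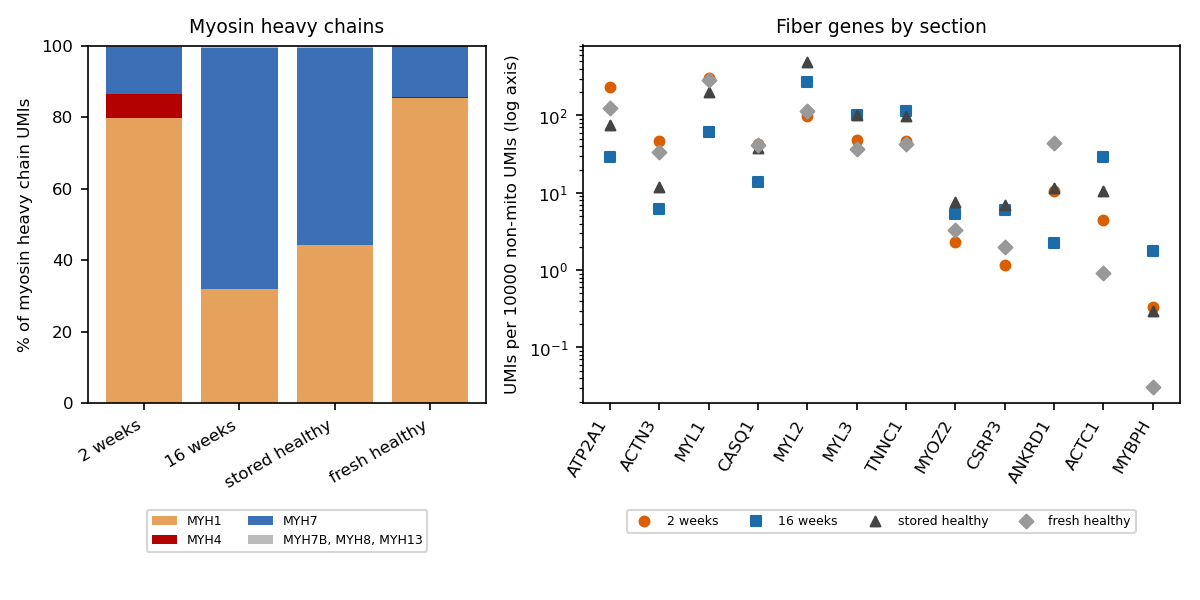
Left, percent of myosin heavy chain UMIs in each myosin gene by section. Right, level of 12 fiber genes in each section in UMIs per 10000 non-mitochondrial UMIs on a log axis. MYH4 is visible at 2 weeks (6.78%) and in no other section, and the 16-week points lie lowest for ATP2A1, ACTN3, MYL1 and CASQ1 and highest for ACTC1 and MYBPH.

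Genes of glycolysis and glycogen use were lower with the fast genes. Of 9 genes 6 were at least 2-fold lower, beside 4.7% of all genes, and 1 was higher. The median log2 ratio was -1.75, and 7 of 9 were lower in muscle-rich spots. ALDOA, the muscle aldolase, had levels of 359 at 2 weeks, 108 at 16 weeks, 235 in stored healthy and 413 in fresh healthy muscle, and was 3.38-fold lower (3.33 to 3.42). ENO3, the muscle enolase, was 3.63-fold lower (3.56 to 3.71) and PGAM2, the muscle phosphoglycerate mutase, 2.57-fold lower (2.51 to 2.63). PGM1, which converts glucose phosphates on the way into and out of glycogen, was 3.76-fold lower (3.55 to 3.99). PHKA1, the muscle subunit of the kinase that activates glycogen phosphorylase, was 5.51-fold lower (5.06 to 6.00), and PPP1R3C, which is outside the list and brings a phosphatase to glycogen, was 5.59-fold lower (5.07 to 6.17). All 6 of these genes lay below both healthy sections at 16 weeks. HK2, the hexokinase of insulin-responsive muscle, went the other way, 2.10-fold higher (1.70 to 2.62).

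Excitation and calcium handling divided along the fiber types. Of 14 genes 5 were at least 2-fold lower and 2 higher, beside 4.7% and 15.9% of all genes, with a median log2 ratio of -0.84. CACNA1S, the voltage sensor of the transverse tubule, was 2.77-fold lower (2.59 to 2.96). PLN, phospholamban, which restrains the slow calcium pump, had 0.119 at 2 weeks and 0.326 at 16 weeks as its level and was 2.71-fold higher (1.81 to 4.18). Triadin, TRDN, which anchors calsequestrin, had a log2 ratio of -0.69.

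Before centring the respiratory chain stayed within 2-fold. None of the 20 nuclear-encoded subunits was 2-fold higher or lower, and their median log2 ratio was -0.40. The ratios of these subunits ran from -0.81 to -0.16, so all 20 lay below the median of 0.31 over all genes. After centring 1 of the 20 was at least 2-fold lower. COX5B, a subunit of complex IV, had levels of 32.6 at 2 weeks, 24.6 at 16 weeks, 62.9 in stored healthy and 48.6 in fresh healthy muscle, so both tenotomy sections lay below both healthy ones. ATP5F1B, a subunit of the ATP synthase, had levels of 43.3, 36.8, 50.6 and 44.8. Likewise none of the 13 mitochondrially encoded genes with a symbol reached 2-fold, and their log2 ratios ran from -0.95 for ND6 to 0.52 for CYTB. Fatty acid oxidation had 3 of 11 genes higher, beside 15.9% of all genes, and none lower, with a median of 0.57. After centring 1 of the 11 was higher. PDK4, which turns pyruvate away from the mitochondrion, was 2.53-fold higher (1.95 to 3.30) and remained so in muscle-rich spots, at 2.73-fold (2.05 to 3.66). CD36, a fatty acid transporter also found in fat and vessels, was 2.46-fold higher overall (1.81 to 3.39) and had a ratio of 1.08 in muscle-rich spots (0.670 to 1.71).

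Genes of regenerating and developing fibers did not share a direction. MYH8, the neonatal myosin, had 975 UMIs at 2 weeks and 208 at 16 weeks, and levels of 3.61, 0.670, 1.38 in stored healthy and 0.233 in fresh healthy muscle. It was 5.45-fold lower at 16 weeks (4.69 to 6.36). Its UMIs were gathered in few places, with 1% of the spots holding 48.3% of them at 2 weeks and 62.0% at 16 weeks. ACTC1, the cardiac actin of developing muscle, went the other way, with levels of 4.50 at 2 weeks, 29.2 at 16 weeks, 10.7 in stored healthy and 0.911 in fresh healthy muscle.

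ACTC1 was 6.41-fold higher at 16 weeks (6.04 to 6.81) and 6.94-fold higher in muscle-rich spots (6.51 to 7.41). It was not confined to a few places, since 67.5% of the 16-week and 11.9% of the 2-week spots held a UMI of it after thinning. MYBPH, a myosin binding protein, had levels of 0.333, 1.75, 0.294 and 0.0309 and was 5.20-fold higher (4.15 to 6.57). MYL4, the embryonic light chain, was 3.57-fold higher (2.91 to 4.41), but 1.73-fold in muscle-rich spots (1.33 to 2.26). Of the 4 members of this list past the minimum, 3 were thus higher and the neonatal myosin was lower, and the median was 2.10. The median stored over fresh healthy log2 ratio of these genes was 3.37, so differences of that size occurred without tenotomy.

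Genes that respond to load and stretch also parted. ANKRD1, a titin-binding ankyrin repeat protein, had levels of 10.6 at 2 weeks, 2.24 at 16 weeks, 11.7 in stored healthy and 44.1 in fresh healthy muscle. It was 4.78-fold lower at 16 weeks (4.40 to 5.20), while the 2-week level was close to that of stored healthy muscle. ANKRD23, of the same family, was 2.72-fold lower (2.31 to 3.22), but ANKRD2, the family member of slow fibers, was 2.21-fold higher (2.02 to 2.43).

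CSRP3, a Z-disc LIM protein of slow and cardiac muscle, had levels of 1.16 at 2 weeks, 5.96 at 16 weeks, 6.87 in stored healthy and 2.01 in fresh healthy muscle. It was 5.08-fold higher at 16 weeks (4.50 to 5.74) and 7.65-fold higher in muscle-rich spots (6.64 to 8.85), and the 2-week level was the one below both healthy sections. Of 13 genes in this list 5 were higher and 2 lower, beside 15.9% and 4.7% of all genes, with a median log2 ratio of 0.70. After centring 2 were higher and 2 lower. FHL1, a LIM protein of the sarcomere, lay on the boundary, at 2.00-fold higher (1.73 to 2.32).

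The chains of collagens I and III were lower at 16 weeks than at 2 weeks. COL1A1, a chain of type I collagen, had levels of 7.95 at 2 weeks, 2.16 at 16 weeks, 1.77 in stored healthy and 0.360 in fresh healthy muscle, and was 3.72-fold lower (3.41 to 4.06). COL3A1, the chain of type III collagen, had levels of 94.4, 36.3, 29.7 and 8.37 and was 2.63-fold lower (2.57 to 2.69). COL1A2, the partner chain of COL1A1, was 2.09-fold lower (2.03 to 2.14). For all 3 the 16-week level was still above both healthy sections.

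The difference was wider inside muscle-rich spots, where COL1A1 was 11.0-fold (8.90 to 13.7), COL1A2 6.15-fold (5.78 to 6.54) and COL3A1 4.97-fold lower (4.76 to 5.18). At 16 weeks 13.6% of the COL1A1 UMIs lay in muscle-rich spots, beside 51.4% of all UMIs. At 2 weeks these shares were 73.2% and 93.7%. SFRP2, a Wnt modulator made by fibroblasts, went with the collagens, 2.20-fold lower overall (2.03 to 2.38) and 6.00-fold lower in muscle-rich spots (4.95 to 7.34).

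Other collagen genes of the list had log2 ratios of -0.53 for COL15A1, -0.29 for COL5A2, -0.08 for COL14A1 and 0.85 for COL12A1, all within 2-fold. The fibroblast list as a whole was split, with 5 of 21 genes at least 2-fold higher, 4 lower and a median log2 ratio of -0.08. Over all genes 15.9% were higher and 4.7% lower. DPT, dermatopontin, a matrix protein that binds decorin, had levels of 4.51 at 2 weeks, 19.5 at 16 weeks, 2.45 in stored healthy and 1.77 in fresh healthy muscle, and was 4.28-fold higher (4.03 to 4.56). Its difference held in muscle-rich spots at 2.47-fold (2.28 to 2.68). COL11A1, a minor fibrillar collagen, had 15 UMIs at 2 weeks and 176 at 16 weeks, or 10.1-fold higher (5.95 to 18.4), with 5.11% of the 16-week UMIs in muscle-rich spots. FBN1, fibrillin, was 2.27-fold higher (1.74 to 2.99) and THBS4, a thrombospondin of tendon and muscle, 4.30-fold higher (2.29 to 8.78), the latter on 12 and 60 UMIs. In muscle-rich spots 1 of 17 genes of this list was higher and 10 were lower, with a median of -1.14.

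Among matrix proteases and their inhibitors 3 of 8 genes were higher, beside 15.9% of all genes, and none lower, with a median of 0.80. After centring 2 of the 8 were higher. MMP2, a gelatinase of fibroblasts, was 2.66-fold higher (2.41 to 2.93) in all spots and had a ratio of 1.02 in muscle-rich spots (0.873 to 1.18). ADAMTS5, which cleaves proteoglycans, was 2.77-fold higher (1.71 to 4.63), and CTSB, cathepsin B of the lysosome, 2.28-fold higher (2.11 to 2.46). None of 7 basement membrane genes reached 2-fold, beside 20.6% of all genes either way, with a median of 0.43. COL4A2 had a level of 8.56 at 2 weeks and 11.0 at 16 weeks, and LAMA2, the laminin chain around muscle fibers, 2.07 and 2.83.

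The adipocyte genes had the highest median ratio of the 34 lists. The lists and their members were chosen with earlier results of these data known, so this rank is not independent support. Of 8 genes 7 were at least 2-fold higher at 16 weeks, beside 15.9% of all genes, none lower, and the median log2 ratio was 3.29. SNCG, ALDOC, PTGER3, CIDEA and AQP8 had the largest ratios. The other members past the minimum had log2 ratios of 2.52 for PPARG, 1.02 for LPL and 0.73 for CA3. SNCG, gamma-synuclein, which is made by adipocytes and by neurons, had levels of 0.530 at 2 weeks, 14.9 at 16 weeks, 0.298 in stored healthy and 0.607 in fresh healthy muscle, and was 27.9-fold higher (23.6 to 33.2). After thinning, 57.4% of the 16-week and 3.50% of the 2-week spots held a UMI of it, so the gene was found across much of the section. ALDOC, an aldolase, had levels of 0.367, 8.68, 0.179 and 0.149 and was 23.4-fold higher (19.1 to 28.9).

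PTGER3, a prostaglandin E receptor that restrains lipolysis, had 18 UMIs at 2 weeks and 455 at 16 weeks and was 21.7-fold higher (13.6 to 37.0). CIDEA, a lipid droplet protein, had 27 and 343 UMIs and was 10.9-fold higher (7.38 to 16.8), and AQP8, a water channel, had 35 and 366 UMIs and was 8.99-fold higher (6.35 to 13.1). ADIPOQ, the fat cell hormone adiponectin, had 2 and 43 UMIs, under the minimum. LPL, the lipase that releases fatty acids from circulating lipoproteins, was 2.03-fold higher (1.94 to 2.13), with levels of 9.35, 19.2, 5.80 in stored healthy and 6.79 in fresh healthy muscle. For each of these 6 genes the 16-week level was above both healthy sections. UCP1 and LEP, defining markers of brown fat and of fat cells, had 0 UMIs in both sections. TCAP, of the list of shared sarcomere genes, also had 0 in both, so a count of 0 does not show that a marker was absent.

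Most adipocyte genes were also higher within muscle-rich spots, where 7 of 8 were at least 2-fold higher with a median log2 ratio of 2.95. These were not the same 7 genes. LPL went from a log2 ratio of 1.02 in all spots to 0.56 there, and CA3 from 0.73 to 1.17. SNCG was 16.8-fold higher there (13.3 to 21.6), and 17.6% of its 16-week UMIs lay in those spots.

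**Figure D4:**
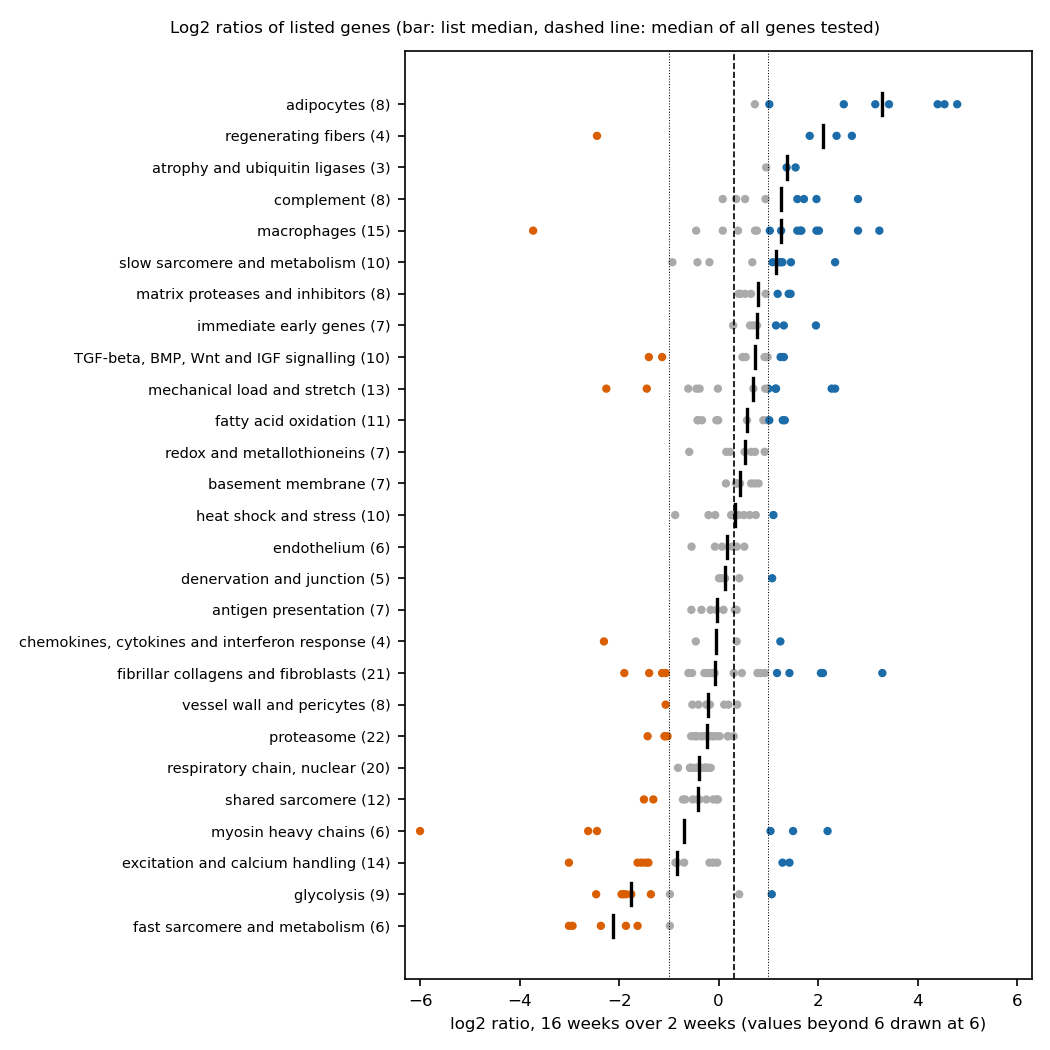
Log2 ratio of 16 over 2 weeks for each gene past the minimum (points, with the number of genes in parentheses) in every list with at least 3 such genes, with the list median as a bar, the median of all genes (0.31) as a dashed line and 2-fold as dotted lines. Adipocyte genes lie at the high end (median 3.29) and fast fiber genes at the low end (median -2.11).

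Of 15 macrophage genes 9 were at least 2-fold higher at 16 weeks, beside 15.9% of all genes, and 1 was lower. The median log2 ratio was 1.26, and 7 were higher after centring. The same genes had a median stored over fresh healthy log2 ratio of 1.74, so differences of that size occurred without tenotomy. Several general macrophage markers were not among the higher genes, with log2 ratios of 0.77 for CD68, 0.73 for CD14, 0.39 for MRC1, 0.09 for AIF1 and -0.45 for FCER1G. C1QA, a chain of complement C1q that tissue macrophages make, had levels of 0.207 at 2 weeks, 1.48 at 16 weeks, 0.539 in stored healthy and 0.177 in fresh healthy muscle, and was 7.03-fold higher (5.32 to 9.46). C1QC was 3.93-fold higher (3.10 to 5.02) and C1QB 3.02-fold higher (2.16 to 4.30). LGALS3, the galectin of phagocytes, was 3.13-fold higher (2.76 to 3.55), FABP5, a fatty acid carrier of macrophages and fat, 3.17-fold (2.96 to 3.40), and CSF1R, the receptor for the macrophage growth factor, 2.39-fold (2.06 to 2.79).

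These genes were less far apart in muscle-rich spots, with a median of 0.58. There 4 of 11 macrophage genes were higher and 1 lower, beside 4.72% and 6.97% of all genes. STAB1, a scavenger receptor, was 2.04-fold higher in all spots (1.73 to 2.43) and had a ratio of 1.02 in muscle-rich spots (0.773 to 1.33). CHI3L1, a secreted chitinase-like protein of macrophages and other cells, was the member that was lower. It had 290 UMIs at 2 weeks and 25 at 16 weeks, and levels of 1.07, 0.0806, 0.0173 in stored healthy and 0.00843 in fresh healthy muscle, so that it was 13.5-fold lower (8.95 to 21.2). Of its 2-week UMIs 40.3% lay in 1% of the spots.

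Complement genes, which share the C1q genes with the macrophage list, had 4 of 8 higher, beside 15.9% of all genes, and none lower. Complement genes had a median of 1.26, and 4 of 8 were also higher after centring. Their median stored over fresh healthy log2 ratio was 1.43. CLU, clusterin, had levels of 3.26 at 2 weeks, 10.8 at 16 weeks, 3.97 in stored healthy and 3.20 in fresh healthy muscle and was 3.29-fold higher (3.05 to 3.54), and 1.46-fold higher in muscle-rich spots (1.31 to 1.62). Among antigen presentation genes none of 7 reached 2-fold, beside 20.6% of all genes either way. Their median was -0.04, against 1.26 for the macrophage list. CD74, the invariant chain of MHC class II, had levels of 1.17 and 1.06 in all spots, 1.12-fold lower (0.954 to 1.31), and was 2.49-fold lower in muscle-rich spots (1.85 to 3.41). HLA-DRA, a class II chain, had levels of 1.87 and 1.30, and B2M, the light chain of class I, 7.50 and 7.39.

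Other immune markers were sparse. Of the B and plasma cell list 1 of 10 genes with a feature passed the minimum, JCHAIN, the joining chain of antibodies, with 28 UMIs at 2 weeks and 129 at 16 weeks, 3.96-fold higher (2.62 to 6.19). At 16 weeks 53.5% of these lay in 1% of the spots and 9.30% in muscle-rich spots, where the ratio was 0.697 (0.322 to 1.42). MZB1, a plasma cell chaperone, had 5 and 28 UMIs. None of 7 T and NK cell genes passed, and their counts ran from 0 to 2 UMIs at 2 weeks and from 0 to 14 at 16 weeks. Of the granulocyte and mast cell list 2 genes passed and neither reached 2-fold, with a median of -0.04, KIT with 24 and 31 UMIs and S100A9 with 31 in each section.

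Chemokines and interferon response had 1 of 4 genes higher and 1 lower, with a median of -0.05. CCL21, a chemokine of lymphatic vessels and lymphoid stroma, was 2.37-fold higher in all spots (2.13 to 2.64) and 0.578-fold in muscle-rich spots (0.466 to 0.715), which hold 9.39% of its 16-week UMIs. IFIT3, an interferon-induced gene, had 197 UMIs at 2 weeks and 46 at 16 weeks and was 4.98-fold lower (3.60 to 7.02).

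Lists of vessel, nerve and precursor cell markers were short, and over all genes 20.6% reached 2-fold either way. None of 6 endothelial genes did, which is too few genes to tell from that share. Their median was 0.17, and VWF, the clotting factor of endothelium, had levels of 3.97 and 4.22. In the vessel wall list, with a median of -0.21, 1 of 8 genes was lower, LMOD1 of smooth muscle at 2.09-fold (1.75 to 2.51), and ACTA2, smooth muscle actin, had levels of 3.80 and 4.98. That list and its median include Tpm2 and DES, which are also in the list of shared sarcomere genes. In the nerve list S100B alone passed the minimum, at 3.12-fold higher (2.63 to 3.71), a gene that Schwann cells and adipocytes both use, while CDH19 of Schwann cells had 16 and 17 UMIs. Among satellite cell genes VCAM1 alone passed, with levels of 0.256 and 0.255, and MYF5, an early myogenic factor, had 15 and 8 UMIs. ALAS2, the heme enzyme of red cell precursors, had 13 UMIs at 2 weeks and 80 at 16 weeks, and SLC4A1, the anion exchanger of red cells, had 0 in both.

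Atrophy genes had low counts and were at least 2-fold higher at 16 weeks in 2 of 3 cases, beside 15.9% of all genes, with a median of 1.37. Members under the minimum were mixed, as MSTN had 26 UMIs at 2 weeks and 3 at 16 weeks, TRAF6 2 and 1, and FBXO30 9 and 25. TRIM63, the ubiquitin ligase MuRF1, had 27 and 93 UMIs, 2.96-fold higher (1.91 to 4.73) and 3.37-fold in muscle-rich spots (2.10 to 5.53). FBXO32, atrogin, lay just under the limit at 1.95-fold higher (1.44 to 2.66). FOXO3, a transcription factor upstream of TRIM63 and FBXO32, had 17 and 52 UMIs and was 2.63-fold higher (1.50 to 4.85). The proteasome itself had 4 of 22 genes lower, beside 4.7% of all genes, and none higher. Its median was -0.24 against 0.31 over all genes, and none of the 22 lay above the latter. PSMD14, a deubiquitinase of the regulatory particle, was 2.70-fold lower (1.99 to 3.70), and the core subunits PSMB4 and PSMB6 had log2 ratios of -0.10 and -0.04. Of 5 denervation and junction genes PRKAR1A, a regulatory subunit of protein kinase A, was 2.12-fold higher (1.59 to 2.85), the list median was 0.13, and RAPSN, which clusters acetylcholine receptors, had levels of 0.652 and 0.664.

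Before centring, stress and early response genes had a few members that were higher at 16 weeks and none at least 2-fold lower. HSPB1, a small heat shock protein, was the 1 of 10 stress genes past 2-fold, with levels of 14.4 at 2 weeks, 31.3 at 16 weeks, 29.1 in stored healthy and 83.6 in fresh healthy muscle and a ratio of 2.15 (2.07 to 2.23). The median of that list was 0.33, and its 1 of 10 higher stands beside 15.9% of all genes. After centring none of the list was higher and 1 was lower. CRYAB, the small heat shock protein of slow fibers, had a log2 ratio of 0.75. Immediate early genes had 3 of 7 higher, beside 15.9% of all genes, and none lower. Among the higher were BTG2, an inhibitor of cell division, at 3.98-fold (2.29 to 7.32), and CCN1, a matrix-bound growth regulator, at 2.23-fold (1.95 to 2.56). The median of this list was 0.77, and 2 of 7 were higher after centring. None of 7 redox genes reached 2-fold, beside 20.6% of all genes either way, with a median of 0.52. SOD1, superoxide dismutase, had levels of 6.13 and 10.3. Of the cell cycle list MCM3, a replication helicase subunit, was 2.20-fold higher on 16 and 41 UMIs, and PCNA had a log2 ratio of 0.37. Members under the minimum were mixed. TOP2A had 12 UMIs at 2 weeks and 0 at 16 weeks, CDK1 19 and 6, CCNB2 6 and 1, and MCM2 7 and 3. MCM5 had 14 and 26, and AURKB 2 and 5.

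In growth factor signalling 2 of 10 genes were higher and 2 lower, beside 15.9% and 4.7% of all genes, with a median of 0.73. IGFBP5, an insulin-like growth factor binding protein, had levels of 2.25 at 2 weeks, 0.861 at 16 weeks, 0.415 in stored healthy and 0.374 in fresh healthy muscle and was 2.64-fold lower (2.29 to 3.06). IGFBP6, another binding protein, had levels of 3.47, 8.72, 4.40 and 2.79 and was 2.48-fold higher (2.30 to 2.68), so these related genes went opposite ways. BMP4, a bone morphogenetic protein, was 2.39-fold higher (1.77 to 3.24) and under 2-fold after centring.

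Several genes among the most different ones belonged to no list. OSTN, osteocrin or musclin, a peptide that muscle secretes, had 32 UMIs at 2 weeks and 934 at 16 weeks, with levels of 0.119, 3.01, 0.0942 in stored healthy and 0.0197 in fresh healthy muscle. It was 25.1-fold higher at 16 weeks (17.7 to 36.9) and 32.8-fold higher in muscle-rich spots (22.7 to 49.0), which held 67.1% of its 16-week UMIs. VWA2, a matrix protein, likewise was 7.71-fold higher in all (6.01 to 10.0) and 8.62-fold in muscle-rich spots (6.62 to 11.4). OSTN and VWA2 thus kept their difference where the contractile share was high.

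NR1D1, the circadian repressor REV-ERB alpha, had levels of 0.307 at 2 weeks, 2.44 at 16 weeks, 0.280 in stored healthy and 0.169 in fresh healthy muscle and was 7.83-fold higher (6.24 to 9.95). The hour at which each muscle was taken is not given in the sources used here. SF3B2, a splicing factor, had levels of 1.80, 13.6, 1.30 and 1.30 and was 7.43-fold higher (6.76 to 8.17), and MGST1, a membrane glutathione transferase, was 7.35-fold higher (6.22 to 8.72). Both were lower in ratio in muscle-rich spots, at 3.86-fold (3.43 to 4.34) and 4.89-fold (3.85 to 6.27).

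Features known only by identifier reached the same size. ENSOCUG00000027416 had 14740 UMIs at 2 weeks and 544 at 16 weeks, 31.5-fold lower (28.9 to 34.4), and ENSOCUG00000022825 had 687 and 4, 199.7-fold lower (77.6 to 735.1). The level of ENSOCUG00000022825 was 2.54 at 2 weeks, 0.0129 at 16 weeks, 0.0346 in stored healthy and 5.45 in fresh healthy muscle. Its log2 ratio was -7.27 for stored over fresh healthy and -7.47 for 16 over 2 weeks, so a difference near that size occurred without tenotomy. ENSOCUG00000027416 had levels of 54.6, 1.75, 14.2 and 48.7 in the same order. ENSOCUG00000027394 had 806 and 10589, 11.3-fold higher (10.5 to 12.2), with 4.91% of the 16-week UMIs in muscle-rich spots. ENSOCUG00000035539 had 63 and 857, 11.7-fold higher (9.05 to 15.4). Its level was 0.233 at 2 weeks, 2.76 at 16 weeks, 0.735 in stored healthy and 0.121 in fresh healthy muscle. Levels of ENSOCUG00000027394 were 2.99, 34.1, 0.0298 and 0.705 in the same order.

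**Figure D5:**
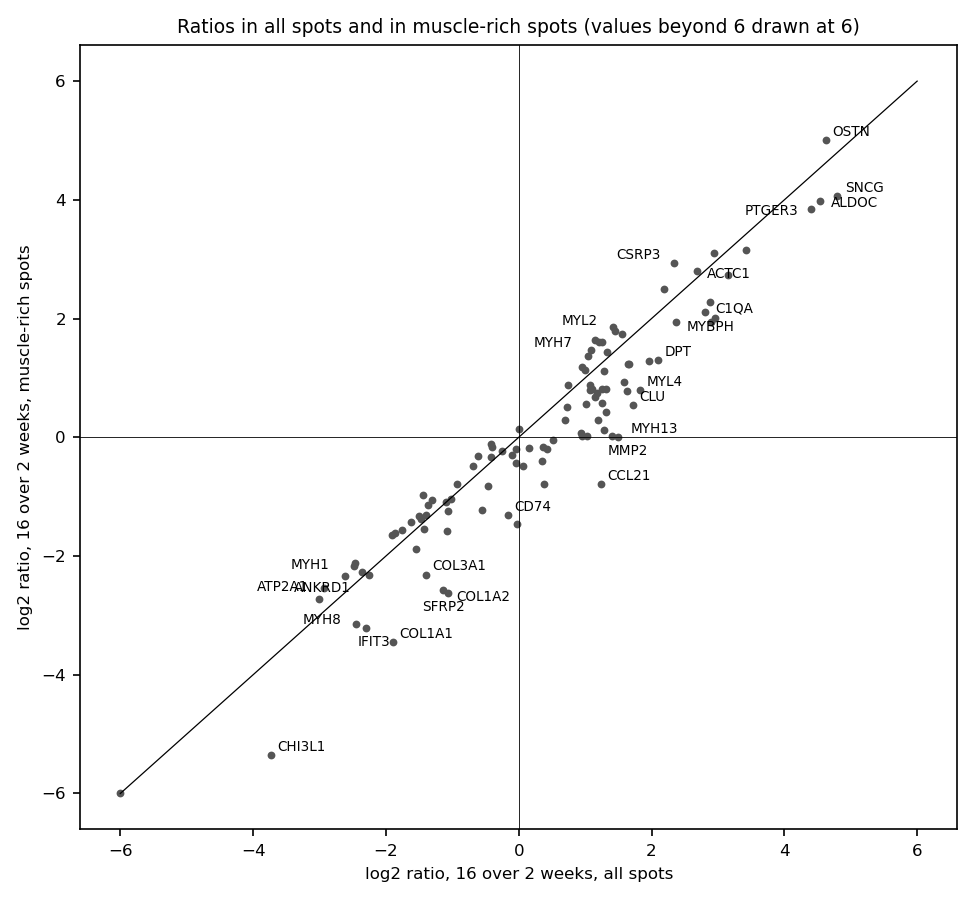
Log2 ratio of 16 over 2 weeks for named genes in all spots (horizontal) and in muscle-rich spots (vertical), with the line of equality and values beyond 6 drawn at 6. OSTN (4.63 and 5.01) and CSRP3 (2.34 and 2.93) lie above the line, and COL1A1 (-1.89 and -3.45), CCL21 (1.24 and -0.79) and CD74 (-0.16 and -1.31) lie below it.

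The levels of the called genes were also set beside those of the healthy sections. These genes were called by their 16-week over 2-week ratio, so a level beyond both healthy sections follows in part from the call. Among the 655 genes higher at 16 weeks, the 16-week level was above both healthy sections for 629, between them for 21 and below both for 5. For the same genes the 2-week level was above both for 262, between them for 251 and below both for 142. Among the 194 lower genes, the 16-week level was below both healthy sections for 142, and the 2-week level was above both for 107 and between them for 80. Over all genes 63.1% were above both healthy sections at 16 weeks and 46.2% at 2 weeks. For some lower genes both held, as MYH4 and ATP2A1 were above both healthy sections at 2 weeks and below both at 16 weeks.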

How the data were processed

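The deposited values were raw UMI counts per gene and spot, made by the authors with Space Ranger 1.2.0 on the rabbit build OryCun2.0, per the labels, with no normalization. The alignment files of the slide images were not used, and all spots in the count tables were kept. The tables held 21139 genes, 11336 of them with a symbol and 37 mitochondrial, and genes with an identifier only are named by it.

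Counts of each gene were summed over the spots of a section and divided by the section's total, with 0.5 UMI added for log2 ratios. Exact conditional binomial intervals (95%) were computed for ratios and Clopper-Pearson intervals for shares of spots or UMIs. They cover counting error only, and no p-value was computed because each group was 1 section. A gene entered the comparison with at least 50 UMIs in both sections together, and called higher or lower means at least 2-fold.

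Named genes were the 10 highest and 10 lowest ratios among symbols with at least 200 UMIs, from each of 34 gene lists the 4 called members with most UMIs in each direction and the 2 with most UMIs, and 10 fixed genes, which made 125. The features given by identifier and ADIPOQ, UCP1, LEP, CD68, CD14, MRC1, AIF1, FCER1G, COL5A2, COL12A1, COL14A1 and COL15A1 were added to these after their values were seen. So were PPARG, CA3, TCAP, TOP2A, CDK1, CCNB2, MCM2, MCM5, AURKB, MSTN, FBXO30 and TRAF6. The comparison, the lists and the members were chosen with earlier results of these data known. Alternatives changed the denominator, the centring, the spots used and their weight, the minimum count and the muscle-rich limit. The ratios and intervals were computed with scipy 1.17.1 and pandas 2.3.3 under Python 3.11.15, with numpy 2.4.6, drawn with matplotlib 3.10.9 and tested on simulated data. No sequences were used here.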

Additional observations from a re-analysis of the deposited data

How the results depend on the processing

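No paired analysis was possible because each group was 1 section and the sections came from different animals. Leaving out spots under 500 UMIs or the mitochondrial genes changed no call among the 91 named genes that reached 2-fold. The 655 higher genes became 411 without the mitochondrial and the 20 most abundant genes in the total, 340 after centring, 987 with spots weighted equally, 156 in muscle-rich spots, 223 there without the mitochondrial genes in the total, and 120 with their limit at the 25th percentile, 1001 with a minimum of 20 UMIs and 310 with 200. The 194 lower genes became 319 without those abundant genes, 380 after centring and 106 with a minimum of 200 UMIs. A muscle score from 9 contractile genes shared by fast and slow fibers, which like the total without mitochondrial genes in muscle-rich spots was chosen after seeing the data, gave 191 higher genes. With that score 773 spots at 2 weeks and 674 at 16 weeks were muscle-rich. The muscle-rich spots became 733 at 2 weeks and 392 at 16 weeks at the 25th percentile. With spots weighted equally the myosin shares at 2 weeks were 78.3% for MYH1, 6.43% for MYH4, 14.8% for MYH7 and 0.316% for MYH8, and at 16 weeks 33.1%, 0.0538%, 65.9% and 0.334%, so that the order of the sections was reversed for MYH8. In muscle-rich spots at 16 weeks they were 31.7%, 0.0216%, 67.7% and 0.0863%. At the 25th percentile the shares at 16 weeks were 0.0225% for MYH4, 67.6% for MYH7 and 0.0849% for MYH8, with 0.369% for MYH8 at 2 weeks. With the shared-gene score they were 34.1% for MYH1, 0.0246% for MYH4, 65.3% for MYH7 and 0.0932% for MYH8 at 16 weeks. Log2 ratios changed sign in muscle-rich spots for CCL21 (-0.79, -0.92 at the 25th percentile, -0.51 with the shared-gene score and -0.63 without the mitochondrial genes in the total), JCHAIN (-0.49, -0.30, -0.15 and -0.34), MYH13 (-0.0032, and -0.22 with the shared-gene score), and at the 25th percentile for STAB1 (-0.091) and MMP2 (-0.035), and MYH13 was at -0.37 without the 1% of spots with most of its UMIs. The cause of these changes was not tested. After thinning to 1000 UMIs the share of spots with a UMI was in the same order as the ratio for 119 of 125 named genes, and for 97 of 125 without thinning when a spot had to hold at least 3 UMIs of the gene. Genes under 50 UMIs in both sections together were not called, except with the minimum of 20.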
